A study of Mus musculus with 6 samples.

Results

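The 10 genes described here belong to the growth hormone and insulin-like growth factor 1 (IGF1) axis of the liver. They were chosen by name: the receptor Ghr, the signalling genes Stat5b and Socs2, the hormone gene Igf1, its serum partner Igfals, the binding proteins Igfbp1, Igfbp2 and Igfbp4, and the major urinary protein genes Mup3 and Mup20. They are 10 of 24411 gene symbols in the table, and all 10 passed the filter on low counts that left 5945 genes for testing.

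Growth hormone from the pituitary binds its receptor on hepatocytes, which activates the kinase JAK2 and the transcription factor STAT5B. STAT5B then induces Igf1 and Igfals, whose products circulate as a ternary complex with an IGF-binding protein, and Socs2, whose product restrains the receptor. Igfbp1 and Igfbp2 are classically high when insulin and nutrient supply are low, and Mup genes are secreted-protein genes that respond to the pulsatile growth hormone of adult males.

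Liver RNA of mice at postnatal day 19 was sequenced from 3 wild-type mice (p62+/+) and 3 heterozygous knock-in mice (p62S351E/+). The knock-in allele replaces a serine of p62, an autophagy receptor that also binds KEAP1, by glutamate, which mimics phosphorylation, and all p62S351E/+ mice kept a wild-type allele. The allele was made by prime editing in a C57BL/6N-derived embryonic stem cell line, and the line descends from a single chimeric male. Sex, litter and feeding state were not given in the labels, and each sample was taken as a separate mouse, so p-values measure the spread between these samples.

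Most counts of each library fell on 3 genes. Of 8696712 to 10341622 expected counts per library, 271473 to 299487 in p62+/+ and 134911, 231631 and 315436 in p62S351E/+ mice 1, 2 and 3 fell outside Rn45s, Lars2 and Mir6236. The libraries carried hepatocyte transcripts throughout: 11 of 12 marker genes were in the table and passed the filter, none was called, and their summed normalized counts lay between 13500 and 14700 in p62+/+ and between 15200 and 33300 in p62S351E/+. All 7 pituitary markers, growth hormone and prolactin included, had no count in any library. Markers of brain were also present, with 2155 to 2533 counts over 10 genes in p62+/+ and 2332 in p62S351E/+ mouse 3, but 20 and 31 counts in p62S351E/+ mice 1 and 2. Of those counts in mice 1 and 2, Slc1a2, which hepatocytes also express, gave 17 and 26. The part of these transcripts in the results was not tested beyond a fit with the summed brain markers as a covariate. Results are therefore also given for p62S351E/+ mouse 3 alone.

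Upstream sequences of Igfbp1 and Igfals are shown because their transcripts lay above and below the p62+/+ values, respectively, in all 3 p62S351E/+ mice, and both hold a motif of the axis. The capitals mark an insulin response element core (CAAAACA) in Igfbp1, and a FOXO motif (TGTTTAC) and a STAT5 motif (TTCNNNGAA) in Igfals. Both are RefSeq sequences on the plus strand of GRCm38.p6. The Igfbp1 sequence ends just before the annotated start of the gene. The Igfals sequence lies inside the annotated gene, upstream of the first exon of its protein-coding transcript and downstream of the starts of longer non-coding transcripts.
Igfbp1, chr11:7197537-7197781: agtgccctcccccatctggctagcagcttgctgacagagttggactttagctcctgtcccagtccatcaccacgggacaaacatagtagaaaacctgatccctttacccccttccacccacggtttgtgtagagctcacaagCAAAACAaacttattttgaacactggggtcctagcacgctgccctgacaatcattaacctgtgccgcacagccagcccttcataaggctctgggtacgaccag
Igfals, chr17:24877981-24878214: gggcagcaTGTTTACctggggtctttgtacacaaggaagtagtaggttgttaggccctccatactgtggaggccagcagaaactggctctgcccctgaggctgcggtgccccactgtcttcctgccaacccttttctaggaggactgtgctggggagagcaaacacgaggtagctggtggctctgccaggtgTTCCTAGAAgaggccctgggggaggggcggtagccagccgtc

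Within the 250 bases before a RefSeq start, the Igfbp1 element lay 108 to 102 bases upstream, and the Igfals STAT5 and FOXO motifs lay 58 to 50 and 242 to 236 bases upstream of one of the starts of Igfals. Another Igfals window held a further STAT5 motif, TTCTCAGAA, and the Mup3 window held the insulin response core on the opposite strand. Windows were available for 8 of the 10 genes, 13 in all, and none held TGACNNNGC, the core of the antioxidant response element that NRF2 binds. Of the 13 windows, 2 held the STAT5 motif, 1 the FOXO motif and 2 the insulin response core. The windows of Igf1, Igfbp2 and Igfbp4, whose values also lay apart between the genotypes, held none of these motifs, nor did those of Ghr and Stat5b. Over 32851 mouse promoter windows searched on both strands in the same way, 7.02% held the STAT5 motif, 3.17% the FOXO motif, 5.56% the insulin response core and 10.2% the antioxidant core. A match of this kind is a description of letters, not evidence of binding.

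Of the 10 genes, Igfbp2 rose in p62S351E/+ livers and no member fell, at an adjusted p below 0.05 and a log2 fold change beyond 1 in edgeR's quasi-likelihood test. Over all 5945 genes tested, 0.841% were called higher and 0.0841% lower. At an unadjusted p below 0.05, 3 members were higher (Igfbp1, Igfbp2 and Igfbp4) and 2 lower (Igf1 and Igfals), and for these 5 genes the 3 values of a genotype did not overlap those of the other. Over all genes tested, 9.02% were higher and 5.55% lower at that unadjusted p. Groups that did not overlap were common in the table, at 12.0% of genes higher and 14.7% lower in p62S351E/+. DESeq2 called Igfbp1 and Igfbp2 higher, where 5.07% of the 1775 genes that it gave an adjusted p were called higher and 0.845% lower. Its own filter left Igfals, Socs2 and Mup20 without an adjusted p, so these 3 members could not be called by it. Limma-voom called Igfbp1 and Igfbp2 higher and no member lower, against 2.05% of all genes higher and 0.219% lower. The legacy form of the edgeR test called Igfbp2 higher and Igfals lower, against 1.01% and 0.135%. The median log2 fold change was 0.02 over the 10 members and −0.03 over all genes tested.

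**Figure D1:**
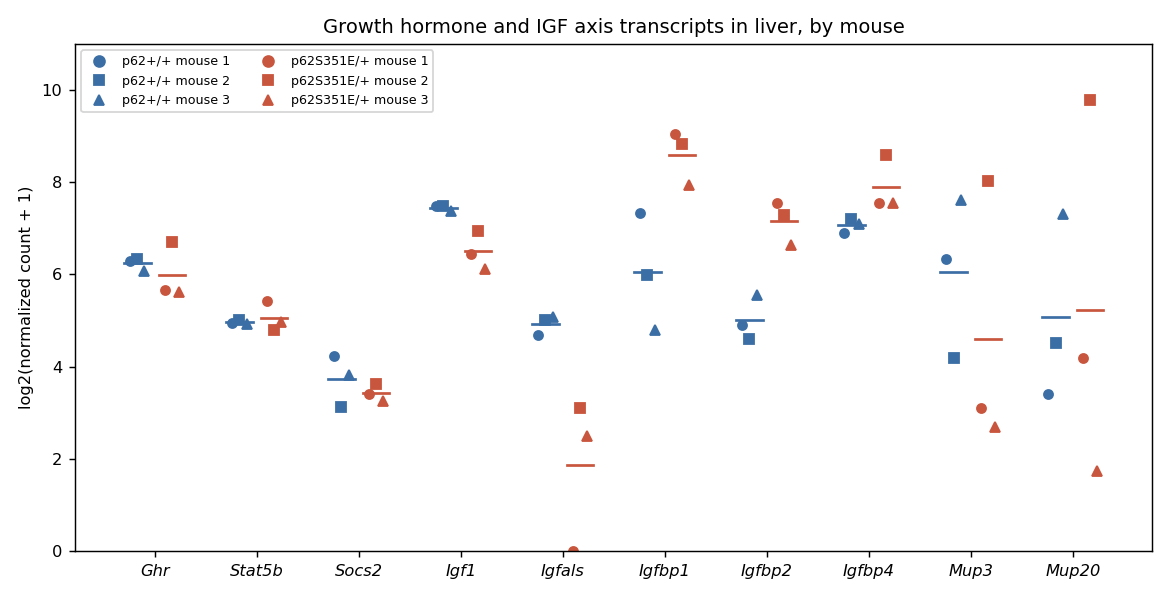
Normalized counts of the 10 genes in each mouse, on a log2(normalized count + 1) scale, with p62+/+ in blue and p62S351E/+ in red, a symbol for each mouse number and a line at the mean of the plotted values. The genotypes are apart for Igf1, Igfals, Igfbp1, Igfbp2 and Igfbp4. The Mup3 and Mup20 points spread over several log2 units within each genotype, most widely for Mup20 in p62S351E/+.

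The growth hormone receptor and its signalling genes did not pass the test in either direction. Ghr, on the minus strand of chromosome 15 (3317760 to 3583492, GRCm38, GENCODE), had normalized counts of 77.8, 80 and 66.5 in p62+/+ mice 1, 2 and 3, against 49.5, 103 and 48 in p62S351E/+ mice 1, 2 and 3. Mouse 2 lay above and mice 1 and 3 below every p62+/+ value. The log2 fold change was −0.16 (SE 0.32, 95% interval −0.88 to 0.56, adjusted p = 0.825).

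Stat5b, the main transcription factor downstream of the receptor, had normalized counts of 29.6, 31.4 and 29.5 in p62+/+ and of 41.6, 26.6 and 30.2 in p62S351E/+. The p62S351E/+ values fell on both sides of the narrow p62+/+ range, and the log2 fold change was 0.12 (SE 0.25, 95% interval −0.45 to 0.68, adjusted p = 0.832). Socs2, an inhibitor of the receptor that STAT5B induces, was counted 22, 10 and 15 times in p62+/+ and 5, 9 and 11 times in p62S351E/+. After normalization the genotypes overlapped, at 7.76 to 17.7 in p62+/+ and 8.52 to 11.3 in p62S351E/+ (log2 fold change −0.39, SE 0.39, adjusted p = 0.637).

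The wider list of growth hormone receptor signalling, chosen like the other lists with earlier results of these data known, held 19 genes, of which 14 were tested. None was called by edgeR or limma-voom, nor among the 5 that DESeq2 gave an adjusted p. At an unadjusted p below 0.05, 1 was higher (Stat3) and 1 lower (Jak2), beside 9.02% and 5.55% of all genes tested. Of the 14, 7 lay above and 7 below 0, with a median log2 fold change of 0.02. Jak2, named after its values were seen, was counted 17, 14 and 21 times in p62+/+ and 3, 3 and 13 times in p62S351E/+. After normalization its groups did not overlap (log2 fold change −1.05, SE 0.43, edgeR adjusted p = 0.321). The most abundant genes of the list were Ghr, Stat3, Ptpn11 and Irs2. Stat3, which relays interleukin 6 as well as growth hormone signals, had a log2 fold change of 0.86 (SE 0.33, adjusted p = 0.296). The values were −0.29 (SE 0.27, adjusted p = 0.61) for Ptpn11, a phosphatase of the receptor complex,, 0.25 (SE 0.79, adjusted p = 0.898) for Irs2 and 0.89 (SE 0.43, adjusted p = 0.377) for Irs1, both adaptors of the insulin receptor.

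Igf1, the circulating growth factor that the liver secretes, was lower in all 3 p62S351E/+ mice but did not pass the adjusted threshold. The gene lies on the plus strand of chromosome 10 (87858265 to 87937042), and an exon overlaps the antisense gene Igf1os, from which its reads could not be separated because the library was not stated to be stranded. Normalized counts were 178, 177 and 164 in p62+/+ mice against 85.7, 122 and 68.2 in p62S351E/+ mice. The p62+/+ values lay within a narrow band, and the highest p62S351E/+ value, that of mouse 2, was below the lowest of them. The means were 173 ± 7.8 and 92 ± 27.6 (SD, n = 3), a 1.88-fold difference. The fitted log2 fold change was −0.91 (SE 0.25, 95% interval −1.48 to −0.34, edgeR adjusted p = 0.165). DESeq2 gave −0.94 with an adjusted p of 0.0394, which passed the threshold on p but not the one on the fold change, and limma-voom gave −0.95 with an adjusted p of 0.0555. In bulk liver, fewer cells of a type and less RNA per cell cannot be told apart.

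Igfals, which encodes the acid-labile subunit that holds IGF1 in the large serum complex, showed the widest gap of the members that were lower. The gene lies on the plus strand of chromosome 17 (24865997 to 24882010). It was counted 31, 40 and 38 times in p62+/+ mice against 0, 6 and 6 times in p62S351E/+ mice 1, 2 and 3, which corresponds to normalized counts of 24.9, 31.1 and 32.8 against 0, 7.56 and 4.65. All p62S351E/+ values were below the p62+/+ range, although a count of 0 in mouse 1, the shallowest library, allows up to 3 counts, or a normalized count of 5.71. Intervals and floors of this kind cover counting error only. The means were 29.6 ± 4.17 and 4.07 ± 3.81 (SD, n = 3), a 7.27-fold difference. The fitted log2 fold change was −2.72 (SE 0.65, 95% interval −4.21 to −1.23, edgeR adjusted p = 0.121).

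The values of Igf1 and Igfals in p62S351E/+ mouse 3, whose brain-marker counts were close to those of p62+/+, were like those of the other p62S351E/+ mice. Fitted alone against p62+/+, and assumed to vary as the p62+/+ mice did, mouse 3 had log2 fold changes of −1.33 for Igf1 (edgeR adjusted p = 0.00063) and −2.63 for Igfals (adjusted p = 0.000881). In that fit 2 members were called lower and 1 higher, where 0.303% and 0.949% of the genes tested were called lower and higher. Without mouse 3, Igfals was called lower (log2 fold change −2.74, adjusted p = 0.00843) while 15.3% of genes tested were called lower and 5.21% higher. Igf1 then had a log2 fold change of −0.73 with an adjusted p of 0.0344, short of the threshold on the fold change.

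Among the binding proteins, Igfbp2 was the member that passed the test, and Igfbp1 and Igfbp4 had higher values in all 3 p62S351E/+ mice. Igfbp2, which encodes a serum carrier of IGFs that is abundant around birth and in fasting, lies on the plus strand of chromosome 1 (72824503 to 72852474). Its normalized counts were 28.9, 23.3 and 45.8 in p62+/+ mice against 185, 155 and 99.2 in p62S351E/+ mice. The lowest p62S351E/+ value, in mouse 3, was above the highest p62+/+ value, which also came from a mouse numbered 3. Igfbp2 rose 4.48-fold, from 32.7 ± 11.7 to 146 ± 43.4 (SD, n = 3), with a log2 fold change of 2.16 (SE 0.33, 95% interval 1.39 to 2.92, edgeR adjusted p = 0.0282). In the fit of p62S351E/+ mouse 3 alone, which was chosen after the data had been seen and takes its spread from the p62+/+ mice only, the log2 fold change was 1.62 (adjusted p = 0.00115). With the summed brain markers as a covariate the log2 fold change was 1.58 and the adjusted p 0.0777. The call was lost when any one of the mice other than p62S351E/+ mouse 3 was left out, with log2 fold changes of 1.97 to 2.49 and adjusted p of 0.0538 to 0.183, and with the replicate block (2.17, adjusted p = 0.155).

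Igfbp1, an acute inhibitor of IGF1 action that insulin represses, lies on the plus strand of chromosome 11 (7197782 to 7202546) downstream of the first sequence printed above. Its normalized counts were 160, 62.9 and 26.8 in p62+/+ mice against 524, 452 and 243 in p62S351E/+ mice. Every p62S351E/+ value exceeded every p62+/+ value, but the p62+/+ mice themselves differed several-fold. The means were 83.4 ± 69.2 and 406 ± 146 (SD, n = 3), a 4.87-fold difference. The fitted log2 fold change was 2.28 (SE 0.68, 95% interval 0.63 to 3.93, edgeR adjusted p = 0.241). The adjusted p was 0.00141 in DESeq2 (log2 fold change 2.27) and 0.0122 in limma-voom (log2 fold change 2.57). Without p62+/+ mouse 1, the highest of its genotype, the edgeR log2 fold change was 3.18 (adjusted p = 0.0953). The SD of Igfbp1 within genotypes was 1 on the log2 scale, against a median of 0.29 over 161 genes of like level.

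Igfbp4, which encodes a binding protein that mostly holds IGFs inactive, lies on the plus strand of chromosome 11 (99041244 to 99054392). Normalized counts were 119, 147 and 135 in p62+/+ mice against 187, 387 and 185 in p62S351E/+ mice. Mice 1 and 3 were just above the p62+/+ range and mouse 2 was far above it. The means were 133 ± 14 and 253 ± 116 (SD, n = 3). The fitted log2 fold change was 0.92 (SE 0.32, 95% interval 0.2 to 1.64, edgeR adjusted p = 0.256). Without p62S351E/+ mouse 3, Igfbp4 was called higher together with Igfbp2 (Igfbp4 log2 fold change 1.1, adjusted p = 0.0118). In mouse 3 alone the log2 fold change was 1.55 for Igfbp1 and 0.48 for Igfbp4, and neither was called.

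**Figure D2:**
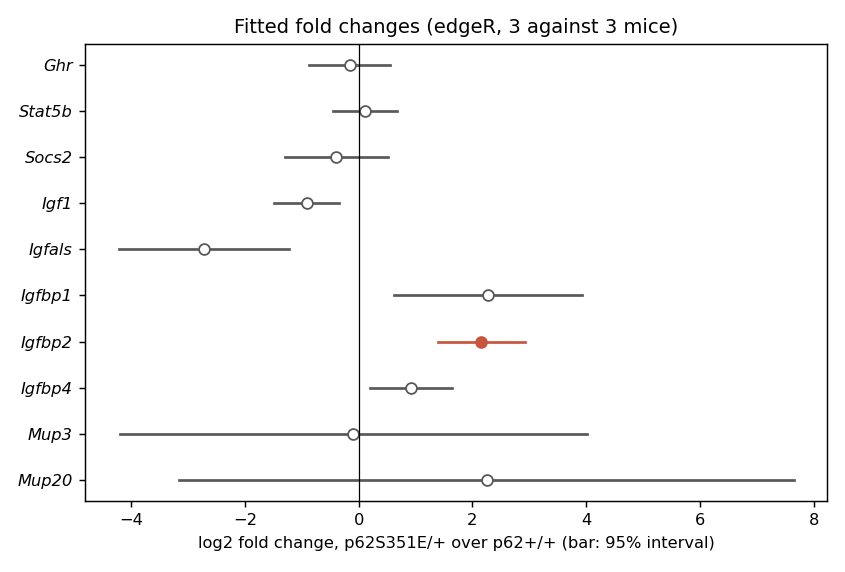
Log2 fold change of each gene, p62S351E/+ over p62+/+, with its 95% interval from the edgeR fit of 3 against 3 mice. The filled red point is Igfbp2, the gene that passed the test, at 2.16, and the intervals of Mup3 and Mup20 extend over several log2 units on both sides of 0.

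Per kilobase of annotated exon, the scale on which genes can be compared with each other, Igf1 stood at 17.5 ± 0.788 normalized counts and Igfbp2 at 17.7 ± 6.33 in p62+/+ livers (SD, n = 3). Igfbp4 stood at 30.1 ± 3.17 and Igfbp1 at 54.7 ± 45.4, and Igfals at 9.35 ± 1.32. In p62S351E/+ livers the order from low to high was Igfals (1.29 ± 1.2), Igf1 (9.29 ± 2.79), Igfbp4 (57.3 ± 26.3), Igfbp2 (79 ± 23.5) and Igfbp1 (266 ± 95.7). Of the neighbours in these orders, Igf1 and Igfbp2 as well as Igfbp4 and Igfbp1 in p62+/+, and Igfbp4 and Igfbp2 in p62S351E/+, differed by less than their spread. Among the signalling genes, Ghr was at 8.26 ± 0.799 and 7.4 ± 3.48, Stat5b at 5.45 ± 0.191 and 5.92 ± 1.41, and Socs2 at 1.34 ± 0.519 and 1.03 ± 0.15 in p62+/+ and p62S351E/+.

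Ratios of counts within a library do not depend on how libraries are scaled to each other. The library held 0.901, 0.355 and 0.163 Igfbp1 counts per Igf1 count in p62+/+ mice 1, 2 and 3, against 6.11, 3.7 and 3.57 in the p62S351E/+ mice. These ratios are not corrected for gene length and compare libraries, not the levels of the genes with each other. The lowest p62S351E/+ ratio was above the highest p62+/+ ratio. On the log2 scale the ratio was −1.41 ± 1.22 in p62+/+ and 2.1 ± 0.43 in p62S351E/+ (SD, n = 3), a difference of 3.51 (exact permutation p = 0.1, two-sided, the smallest that 3 against 3 mice allow). The normalized values of Igfbp1 and of Igf1 were each already apart, in opposite directions. The ratio therefore had to separate, and its p is not further support.

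The Igfbp4 count per Igf1 count was 0.667, 0.829 and 0.821 in p62+/+ and 2.18, 3.16 and 2.72 in p62S351E/+. This ratio varied little within a genotype, with log2 values of −0.38 ± 0.18 and 1.4 ± 0.27 (SD, n = 3) and a difference of 1.78 (exact permutation p = 0.1). Its separation likewise followed from the normalized values of Igfbp4 and Igf1 given above. The log2 ratio of Igfals to Igf1 was −2.54 ± 0.26 and −4.73 ± 1.54, a difference of −2.19 (exact permutation p = 0.1). The size of this difference rests on the count of 0 in p62S351E/+ mouse 1: it was −1.3 without that mouse and −1.81 with 1 count added in place of 0.5.

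Relative to the summed hepatocyte markers, Igf1 was counted 12.1, 13.1 and 11.6 times per 1000 marker counts in p62+/+ and 4.01, 3.67 and 4.48 times in p62S351E/+. The spread of Igf1 on this scale was small in both genotypes, with log2 ratios of −6.35 ± 0.09 and −7.94 ± 0.14 (SD, n = 3) and a difference of −1.59 (exact permutation p = 0.1). The summed markers were themselves higher in p62S351E/+, at 15200 to 33300 normalized counts against 13500 to 14700 in p62+/+. This scale therefore enlarges the difference of Igf1, fitted at −0.91, and shrinks those of Igfbp1 and Igfbp2. With the markers higher and Igf1 lower, their ratio had to separate. Igfbp2 was counted 1.96, 1.73 and 3.23 times per 1000 marker counts in p62+/+ and 8.65, 4.65 and 6.51 times in p62S351E/+, a difference of 1.51 in the log2 ratio. For Igfbp1 the corresponding difference was 1.92 (exact permutation p = 0.1 for both).

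**Figure D3:**
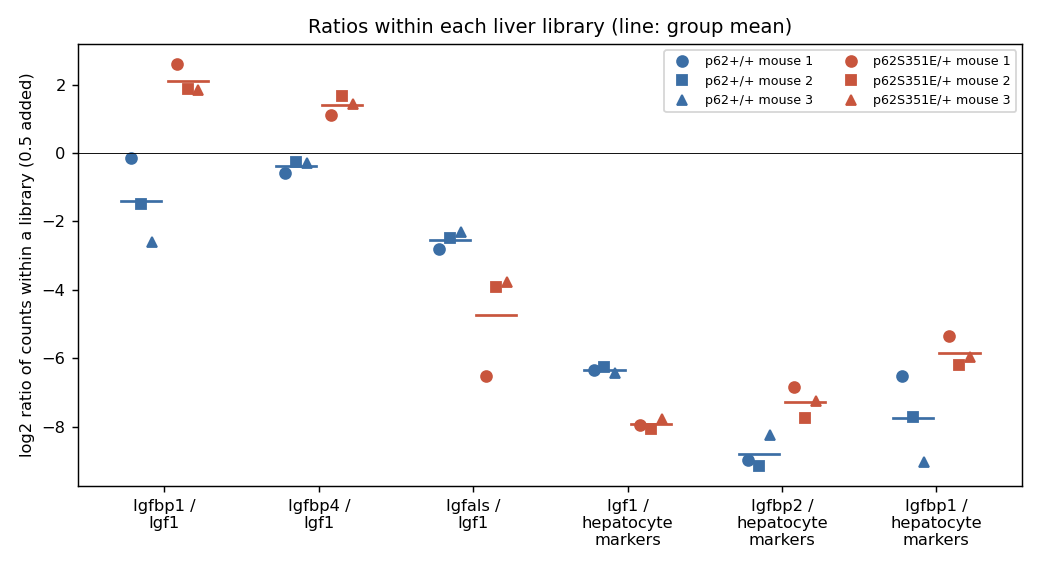
Log2 ratios of counts within each library (0.5 added to each count), by mouse, with p62+/+ in blue, p62S351E/+ in red and a line at each genotype's mean. For all 6 ratios the 3 points of one genotype lie apart from the 3 points of the other, and the Igf1 to hepatocyte marker ratio has the smallest spread, −6.35 ± 0.09 against −7.94 ± 0.14. For Igfbp1 to Igf1, Igfbp4 to Igf1 and Igf1 to the markers, this followed from the normalized values of both parts, which were already apart in opposite directions.

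The list of the IGF complex, receptors and binding proteins held 18 genes, of which 12 were tested. Igfbp2 was called higher and none lower by edgeR, and at an unadjusted p below 0.05 there were 5 higher and 2 lower of the 12, where 9.02% and 5.55% of all genes were. The groups did not overlap for 4 genes that were higher and 5 that were lower, beside 12.0% and 14.7% of all genes tested. The median log2 fold change was −0.44. Beside the members, the other genes of the list named here were chosen after their values were seen. Igf2r, the receptor that clears IGF2, had a log2 fold change of 0.89 (SE 0.31, adjusted p = 0.267), and Insr, the insulin receptor, 0.59 (SE 0.25, adjusted p = 0.329). Igf1r, the IGF1 receptor, was at −0.48 (SE 0.48, adjusted p = 0.625) and Igfbp7, a low-affinity binding protein, at −0.4 (SE 0.36, adjusted p = 0.605). Igfbp3, which carries most IGF1 in serum, was counted 16, 16 and 9 times in p62+/+ and 3, 5 and 7 times in p62S351E/+ (log2 fold change −0.92, SE 0.42, adjusted p = 0.357). Igfbp5 had 22, 16 and 13 against 0, 3 and 11 counts (log2 fold change −1.52, SE 0.69, adjusted p = 0.356), beside a list of 8 stellate cell and fibroblast markers whose median over 6 tested genes was −0.96, with summed counts of 206 to 390 in p62+/+ and 81 to 183 in p62S351E/+. Igfbp5 was also lowest in p62S351E/+ mice 1 and 2, with 20 and 31 brain-marker counts, and highest of its genotype in mouse 3, with 2332. Htra1, whose groups did not overlap, was counted 15, 21 and 18 times in p62+/+ and 0, 0 and 14 times in p62S351E/+. Its log2 fold change was −1.69 (SE 1.01, edgeR adjusted p = 0.468). The part of stellate cell or brain transcripts in the values of Igfbp3, Igfbp5 and Htra1 was not tested.

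The major urinary protein genes did not separate the genotypes. Mup3, on the minus strand of chromosome 4 (62083476 to 62087342), had normalized counts of 80.2, 17.1 and 194 in p62+/+ mice against 7.62, 261 and 5.42 in p62S351E/+ mice. Mup20 (62050234 to 62054158 on the same strand), which encodes the male pheromone darcin, had 9.63, 21.7 and 157 in p62+/+ mice against 17.1, 878 and 2.32 in p62S351E/+ mice. Both genes were high in p62+/+ mouse 3 and p62S351E/+ mouse 2, and both were at their lowest in p62S351E/+ mouse 3. The log2 fold changes were −0.09 for Mup3 (SE 1.62, 95% interval −4.19 to 4.02, adjusted p = 0.982) and 2.25 for Mup20 (SE 2.13, 95% interval −3.15 to 7.65, adjusted p = 0.625). The sign of Mup20 rests on p62S351E/+ mouse 2, without which its log2 fold change was −2.86 (adjusted p = 0.612).

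Many Mup genes are near-identical copies, so the split of reads among those by estimated counts is uncertain, and the family was also summed. Counts of Mup14, Mup7, Mup15 and Mup19 were not whole in 5 libraries each. Those of Mup3 were not whole in 2, and those of Mup20 were whole in every library. The 15 of 20 Mup rows with counts summed to normalized counts of 154, 131 and 1290 in p62+/+ mice against 77.6, 3220 and 23.3 in p62S351E/+ mice. The highest and lowest livers, which were both p62S351E/+, differed 138-fold, and the sum had a log2 fold change of 1.07 (SE 1.9, 95% interval −3.72 to 5.86, adjusted p = 0.807, exact permutation p = 0.8). Within genotypes the SD was 2.48 for Mup3 and 3.32 for Mup20 on the log2 scale, against medians of 0.31 and 0.29 over 646 and 245 genes of like level, of which 4.18% and 1.63% had a larger SD. Of the 7 Mup rows tested none was called by edgeR or limma-voom, DESeq2 left 5 without an adjusted p and called none of the others, and none had an unadjusted p below 0.05. Mup14, Mup7, Mup15 and Mup19, the most abundant rows beside the members, had log2 fold changes of 1.28, 0.75, 1.08 and 0.19 with SEs of 2.31, 2.14, 1.94 and 1.8.

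Xist, which marks female cells, had counts of 70.8, 1505 and 1071 in the p62+/+ libraries and of 1, 0 and 1537 in the p62S351E/+ libraries, and Y-linked genes 77, 12 and 21 against 44, 72 and 14. The libraries with the highest Mup sums were thus one with 1071 Xist counts (p62+/+ mouse 3) and one with none (p62S351E/+ mouse 2). Both transcript sets were present in several libraries, and sex was not assigned. Values of Igf1, Igfals, Igfbp1, Igfbp2 and Igfbp4 in p62S351E/+ mouse 3, with 1537 Xist counts, lay on the same side of the p62+/+ range as those of p62S351E/+ mice 1 and 2, with at most 1.

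**Figure D4:**
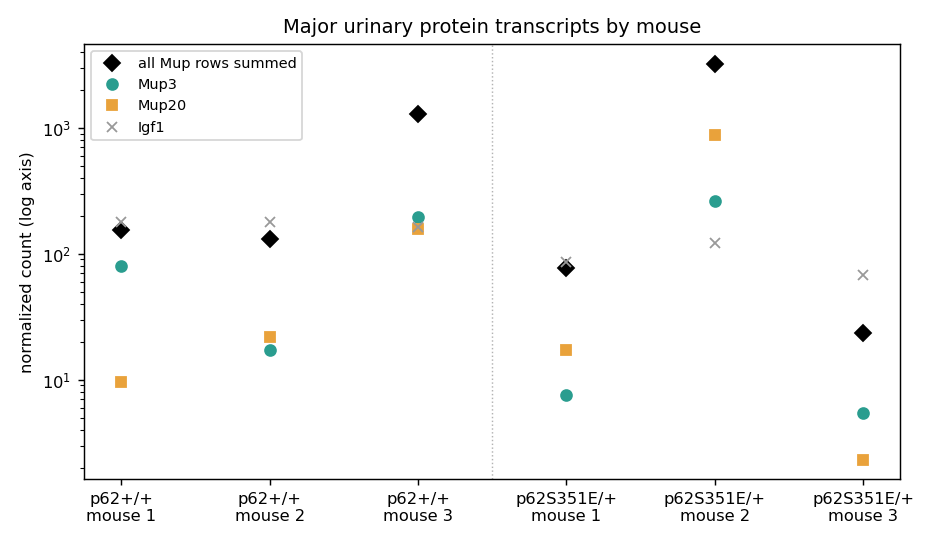
Normalized counts of all Mup rows summed, Mup3, Mup20 and Igf1 in each mouse, on a log axis. The summed Mup level reaches 1290 in p62+/+ mouse 3 and 3220 in p62S351E/+ mouse 2 and is 23.3 in p62S351E/+ mouse 3, while Igf1 stays between 68.2 and 178.

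Liver genes whose levels differ between the sexes through the pattern of growth hormone secretion were described as a pair of lists. For these and the lists that follow, the shares over all genes tested were 9.02% higher and 5.55% lower at an unadjusted p below 0.05, 5.07% and 0.845% called by DESeq2, and 2.05% and 0.219% called by limma-voom. Of 16 male-biased genes 7 were tested and none was called by edgeR (1 higher and 1 lower at an unadjusted p below 0.05, and 1 higher and 1 lower by both DESeq2 and limma-voom), with a median log2 fold change of −0.34. Gstp1, a glutathione transferase and also a known NRF2 target, had 40.3 ± 22 normalized counts in p62+/+ and 237 ± 103 in p62S351E/+ (SD, n = 3), and its groups did not overlap (edgeR log2 fold change 2.56, SE 0.46, adjusted p = 0.0653). It was the gene of the list that the other tools called higher, with adjusted p of 3.01e-06 in DESeq2 and 0.00139 in limma-voom. Selenbp2, a selenium-binding protein gene, was the one they called lower, and its log2 fold change was −2.45 (SE 0.82, adjusted p = 0.285). Serpina1e, an antitrypsin gene, was at −1.09 (SE 1.08, adjusted p = 0.637) and Cyp2d9, a steroid hydroxylase, at 0.64 (SE 0.45, adjusted p = 0.525).

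Of 19 female-biased genes 9 were tested, none was called by edgeR, and the median log2 fold change was 0.49. At an unadjusted p below 0.05 there were 4 higher and 1 lower, and DESeq2 and limma-voom each called 3 higher (the cytochromes P450 Cyp2a4, Cyp2b9 and Cyp2b13), of which Cyp2a4 is named after its values were seen. Cyp2b13 had normalized counts of 4.67, 22.4 and 14.9 in p62+/+ and of 79.2, 71.5 and 53.2 in p62S351E/+ (log2 fold change 2.27, SE 0.49, adjusted p = 0.101). Cyp2b9 had 41.1, 130 and 108 against 366, 196 and 211 (log2 fold change 1.46, SE 0.45, adjusted p = 0.231). The genotypes did not overlap for either gene, whereas Prlr, the prolactin receptor gene, was at −0.03 (SE 0.3, adjusted p = 0.97). Sult2a1, a bile acid and steroid sulfotransferase, was at 0.89 (SE 0.3, adjusted p = 0.255).

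Transcription factors of the growth hormone responsive programme gave 8 tested genes of 12, none called by edgeR, 2 higher and 2 lower at an unadjusted p below 0.05, and a median log2 fold change of −0.21. Hnf4a, a master regulator of hepatocyte genes, had 86.7, 84.6 and 89.8 normalized counts in p62+/+ and 131, 189 and 113 in p62S351E/+ (log2 fold change 0.73, SE 0.24, adjusted p = 0.241). Nr1i3, which encodes the receptor CAR that drives Cyp2b genes, had 16.3, 49.9 and 50.9 against 136, 118 and 109 (log2 fold change 1.63, SE 0.4, adjusted p = 0.131), and DESeq2 and limma-voom called it higher. Cebpa, a hepatocyte factor, was at 0.05 (SE 0.24, adjusted p = 0.926). Glul, a glutamine synthetase gene that the list holds as a marker of hepatocytes near the central vein, was at −1.3 (SE 0.5, adjusted p = 0.312). Onecut1, named after its values were seen, was at −1.9 (SE 0.48, edgeR adjusted p = 0.133). Its counts were 29, 14 and 17 in p62+/+ and 1, 3 and 8 in p62S351E/+.

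Genes of nutrient and stress signals that act on Igfbp1 and Igf1 numbered 22, of which 11 were tested. None was called by edgeR, 3 were higher and 1 lower at an unadjusted p below 0.05, 9 lay above and 2 below 0, and the median log2 fold change was 0.25. Pck1, the rate-limiting enzyme of gluconeogenesis and like Igfbp1 a target that insulin represses, had normalized counts of 576, 285 and 395 in p62+/+ and of 1260, 1390 and 847 in p62S351E/+ (log2 fold change 1.48, SE 0.32, adjusted p = 0.0878). DESeq2 and limma-voom called Pck1 higher (adjusted p = 0.000344 and 0.0121). G6pc, another gluconeogenic gene, was at 0.54 (SE 0.74, adjusted p = 0.736) and overlapped between the genotypes, and Ppara, a fasting regulator, was at 0.33 (SE 0.22, adjusted p = 0.499).

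Likeness to Igf1 and Igfbp1 was measured by Pearson's r of log2 normalized counts over the 6 libraries among 705 genes with a mean of at least 50. With 6 libraries that share the genotype difference, these values are a description. The genes most like Igf1 were Dnaja1 (r = 0.97), Chchd2 (0.963), Mug2 (0.96), Fabp1 (0.947) and Sc5d (0.931). Of these, Mug2, which encodes a secreted protease inhibitor, fell in p62S351E/+ livers, from 155 ± 37.9 to 35.4 ± 15.4 normalized counts (SD, n = 3), with a log2 fold change of −2.14 (SE 0.37, edgeR adjusted p = 0.0411). Its counts were not whole in any of the 6 libraries, so reads shared with the near-identical Mug1 could be split between the genes, and its value is uncertain. Counts of Cyp2a4, Cyp2b9 and Cyp2b13 were likewise not whole in any of the 6, those of Gstp1 not whole in 4, those of Stat5b in 6 and those of Mup3 in 2. Fabp1, the fatty acid-binding protein of liver, was at −1.61 (SE 0.44, adjusted p = 0.188). The genes most like Igfbp1 were Neat1 (r = 0.983), Ankhd1 (0.973), Marf1 (0.973), Sec14l2 (0.969) and Smg1 (0.961). Neat1, a nuclear long non-coding RNA, had the largest difference of these, 885 ± 292 against 1710 ± 83.9 normalized counts (SD, n = 3) and a log2 fold change of 0.95 (SE 0.28, adjusted p = 0.194).

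The directions of Igf1, Igfbp1, Igfbp2 and Igfbp4 were the same in the edgeR test and under all 19 alternatives. Those of Socs2 and Igfals were the same under the 18 alternatives that tested them (they did not have at least 10 counts in every library), whereas those of Ghr, Stat5b, Mup3 and Mup20 changed under at least one. Scaling by library size alone shifted the median of all genes to −0.68, and relative to that shift these 6 directions were the same.

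**Figure D5:**
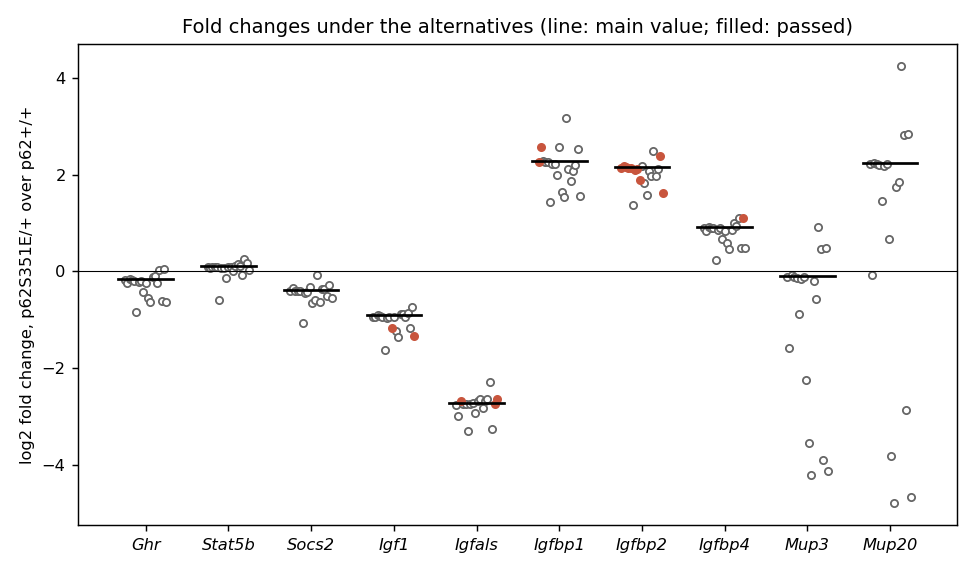
Log2 fold change of each gene, p62S351E/+ over p62+/+, under every alternative (1 point each) with a line at the main value and filled points where the gene passed the test. Igfbp2 lies between 1.37 and 2.49 and Igfals below −2, while Mup3 and Mup20 points lie on both sides of 0.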

How the data were processed

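Total liver RNA was depleted of ribosomal RNA and sequenced as single-end reads of 75 bases. The authors trimmed reads (Trim Galore), mapped them to mm10 with STAR and estimated counts with RSEM, and the deposited values are expected counts per gene symbol without normalization. Versions and the gene annotation were not given in the sources used here. Of the nonzero values, 6.45% were not whole (tolerance 1e-06), and expected counts were rounded for testing.

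The members and the gene lists were chosen with earlier results of these data known. Named beside the members were, per list, every gene called or otherwise the 4 with the highest mean (other list genes are marked as chosen after their values were seen), and the 5 genes most like Igf1 and Igfbp1. Genes passing filterByExpr (minimum count 10) were scaled by TMM and tested with edgeR 4.0.16 (quasi-likelihood, legacy set to FALSE) in R 4.3.3, with Benjamini-Hochberg adjustment over 5945 genes. For normalized counts, each count was divided by its library size times TMM factor, set to a geometric mean of 1 over the libraries. DESeq2 1.42.0 (the study's tool), limma-voom (limma 3.58.1), other scalings and filters, covariates and leaving out each mouse were alternatives. The statistical tests were checked on simulated counts. Exon lengths and positions came from GENCODE (GRCm38) and promoters from RefSeq (GRCm38.p6). Replicate pairs differed by more than sampling noise (chi-square per degree of freedom 1.75 to 6.19), so no library was counted as deposited again. Some genes of the lists are counted but not reported by name here.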

Additional observations from a re-analysis of the deposited data

How the results depend on the processing

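Over the alternatives, 258 results kept their direction and side of the threshold, 9 lost the call, 8 gained one, 15 changed sign and 44 moved. The causes were not tested beyond what each alternative's construction shows (fewer genes or samples). Over all genes, 50 were called higher and 5 lower, against 90 and 15 in DESeq2, 122 and 13 in limma-voom, 12 and 2 with library size only, 79 and 10 without a filter, 27 and 2 with Xist and 30 and 2 with brain markers as a covariate, 8 lower in the legacy test, 29 lower with at least 10 counts in every library and 23 lower for p62S351E/+ mouse 3 alone, which was chosen after seeing the data. Members called higher numbered 2 in DESeq2 and in limma-voom and 0 with library size only, with Xist and with brain markers, and members called lower 1 in the legacy test and with at least 10 counts, and 2 for mouse 3 alone.

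Igfbp2 lost its call with library size only (1.37, adjusted p = 0.417), with Xist (1.83, 0.085) and with brain markers (1.58, 0.0777). Igfbp1 gained one in DESeq2 (2.27, 0.00141) and limma-voom (2.57, 0.0122), Igfals in the legacy test (−2.68, 0.0372) and for mouse 3 alone (−2.63, 0.000881), and Igf1 with at least 10 counts (−1.18, 0.00254) and for mouse 3 alone (−1.33, 0.00063). Sign changes without a call were seen for Stat5b with library size only (−0.59) and with at least 10 counts (−0.14), and for Mup20 in limma-voom (−0.07), with Xist (−3.82), with brain markers (−4.79) and for mouse 3 alone (−4.67).

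Leaving out each mouse gave 16 to 333 genes higher and 1 to 975 lower, and 0 to 2 members higher and 0 to 1 lower. The extremes of 333 and 975 came without p62S351E/+ mouse 3, which also brought calls of Igfals (−2.74) and Igfbp4 (1.1). Log2 fold changes ranged from 1.97 to 2.49 for Igfbp2, −3.26 to −2.28 for Igfals, 0.49 to 1.11 for Igfbp4, −1.17 to −0.73 for Igf1, 1.87 to 3.18 for Igfbp1 (the latter without p62+/+ mouse 1), −0.61 to 0.04 for Ghr, −0.07 to 0.26 for Stat5b, −3.91 to 0.92 for Mup3, −2.86 to 4.25 for Mup20 and −3.4 to 2.97 for the Mup sum. Signs changed without p62S351E/+ mouse 1 for Ghr (0.02), Stat5b (−0.07) and Mup3 (0.46), without p62S351E/+ mouse 2 for Mup20 (−2.86) and the Mup sum (−3.4), without p62S351E/+ mouse 3 for Ghr (0.04) and Mup3 (0.48), and without p62+/+ mouse 3 for Mup3 (0.92).

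Mice with the same number were different animals, and the labels do not state a pairing. Over the genes tested, their deviations from the genotype means correlated at 0.07, −0.08 and 0. Whether mice with the same number shared a litter or a batch was not tested. With the replicate number as a block, 18 genes were higher and 1 lower, no member was called, Igfbp2 was at 2.17 (adjusted p = 0.155) and the Mup sum at −0.89. Igfbp1 was then at 2.57 with an SE of 0.35, against 2.28 with an SE of 0.68 in the main fit. Socs2 and Igfals had at most 22 and 40 counts per library, and the part of depth in their results was not tested.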
